A study of Mus musculus with 6 samples.

Results

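Snord12, Snord55, Snord43, Snord49a, Snord83b, Snord2, Snord99 and Snord110 are 8 box C/D small nucleolar RNAs (snoRNAs) that supplied most of the counts assigned to genes in small RNA libraries of NIH 3T3 cells. They were chosen by their counts summed over the 6 libraries, as the 8 genes with a Snord symbol among the 10 highest, out of 74 Snord symbols and 23420 genes in the tables. All 8 were found and all 8 passed the filter on low counts. NIH 3T3 is an immortalised mouse fibroblast line. Every library came from cells transfected with the pEGFP-NXF3 plasmid, which encodes NXF3, a nuclear export factor family protein, fused to GFP. The 3 input libraries were made without antibody and the 3 pulldown libraries from RNA recovered with an anti-GFP antibody, from 3 separate experiments per the labels. The bait was expressed from a plasmid, and pulldowns from cells without the fusion protein were not analysed here, so each comparison sets the make-up of recovered RNA beside the make-up of input RNA.

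Box C/D snoRNAs are short nuclear RNAs that fold so that a box C near the 5′ end and a box D near the 3′ end come together. The fold binds the proteins Snu13, Nop58, Nop56 and the methyltransferase fibrillarin, and a stretch upstream of box D, or of an internal copy of it, pairs with ribosomal RNA and directs methylation of one ribose. In mammals most of them are cut out of introns of host genes, many of which code for ribosomal proteins or translation factors or make no protein at all. Counterparts of Snord12, Snord55, Snord49a, Snord2 and Snord99 are known as guides for the large-subunit rRNA and those of Snord43 and Snord110 for the small-subunit rRNA, while Snord83b has no assigned rRNA target.

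The sequences are shown so that the motifs shared at their ends can be seen beside bodies that differ. They are the GENCODE M21 gene models of 7 of the 8 (build GRCm38, read on the strand of the gene), with the 6-base box C core and the 4-base box D in capitals.
Snord12: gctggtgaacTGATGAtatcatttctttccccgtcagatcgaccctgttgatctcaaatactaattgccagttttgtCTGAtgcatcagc
Snord43: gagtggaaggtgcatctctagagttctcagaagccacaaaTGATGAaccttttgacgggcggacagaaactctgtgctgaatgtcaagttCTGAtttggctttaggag
Snord49a: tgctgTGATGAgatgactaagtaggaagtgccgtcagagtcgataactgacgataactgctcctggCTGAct
Snord83b: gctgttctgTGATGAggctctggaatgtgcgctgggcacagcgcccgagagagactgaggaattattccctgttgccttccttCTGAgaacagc
Snord2: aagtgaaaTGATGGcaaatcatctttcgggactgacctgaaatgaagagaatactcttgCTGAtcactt
Snord99: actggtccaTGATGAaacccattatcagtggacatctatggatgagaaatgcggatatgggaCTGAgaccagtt
Snord110: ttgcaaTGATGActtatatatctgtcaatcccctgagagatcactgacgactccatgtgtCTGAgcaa

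In these models Snord12 lies at chr2:167065276-167065365 (plus strand), Snord43 at chr15:80082847-80082954 (minus), Snord49a at chr11:62603450-62603521 (plus), Snord83b at chr15:80078498-80078591 (minus), Snord2 at chr16:23108953-23109021 (plus), Snord99 at chr4:132310691-132310764 (plus) and Snord110 at chr2:130275506-130275573 (plus). The submitters' processing notes name mm9, so these coordinates describe the models and not the authors' files. These 7 models are 68 to 108 nt long with a GC content of 39.1% (Snord2) to 55.3% (Snord83b). The box C core is TGATGA in 6 of the 7 and TGATGG in Snord2, starting at base 6 to 11. The exception is the 108 nt model of Snord43, where box C starts at base 41 and which GENCODE types as a miRNA. The distance from box C to the end of box D is 54 nt (Snord43) to 78 nt (Snord83b). A TGATGA before the midpoint together with a CTGA after it, on the RNA strand, is found in 6 of the 7 and in 61 of 82 Snord-named models of 68 to 108 nt (74.4%). None of the 7 shares a run longer than 14 nt with another GENCODE model of a small RNA. Snord49a and Snord49b, which carry similar names, have 68.9% identical positions and a longest shared run of 13 nt.

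The same 7 lie in introns of 6 host genes on the same strand. Rpl3, a large-subunit ribosomal protein gene, holds Snord43 in intron 1 and Snord83b in intron 7 of 9. Eif4a2, which codes for an RNA helicase of translation initiation, holds Snord2 in intron 3 of 11, and Nop56, which codes for one of the proteins of the C/D particle itself, holds Snord110 in intron 3 of 11. The other hosts are noncoding. Zfas1 holds Snord12 in intron 3 of 4, 2410006H16Rik holds Snord49a in intron 2 of 4, and Snhg12 holds Snord99 in intron 4 of 4. For Zfas1, Eif4a2 and Snhg12, some annotated isoform has an exon that overlaps the snoRNA. From the end of box D to the end of the intron there were 77 nt for Snord12, Snord49a and Snord99, 78 for Snord83b, 93 for Snord110, 104 for Snord2 and 278 for Snord43. The 85 other Snord-named models in introns had a median of 107 nt, with quartiles of 80 and 1609 nt. They include many Snord116 copies of a single host, Snhg14. The upper quartile is the value of one of these, Snord116l17, and others reach 180596 nt. The cluster pulls these values up, and a median without it was not computed.

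Gene counts totalled 769570 to 6946284 per library. All 10 fibroblast markers of the list had counts, which summed to 247 to 348 CPM, a count scaled to the same library total, in input and to 156 to 667 in the pulldown, while 3 of 4 adipocyte, all 4 epithelial and 3 of 4 leukocyte markers were at 0 in every library, and the others had at most 1 count in a library. The bait gene, Nxf3, had 2343, 2217 and 2028 counts across inputs 1 to 3 against 1601, 6559 and 2426 across pulldowns 1 to 3. As shares of gene counts these were 0.0612%, 0.118% and 0.0515% in input against 0.208%, 0.0944% and 0.0740% in the pulldown. Its log2 fold of pulldown over input was 0.53 (SE 0.55, adjusted p = 0.968, edgeR). Pulldown 1, the shallowest library, had correlations of 0.883 to 0.905 with the others (Pearson, log2 CPM across genes), and the remaining pairs had 0.926 to 0.952.

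Together the 8 snoRNAs took 66.0%, 59.6% and 68.9% of gene counts across inputs 1 to 3 against 58.8%, 66.6% and 66.0% across pulldowns 1 to 3. The groups overlapped. The means were 64.8% ± 4.74 (SD, n = 3) for input and 63.8% ± 4.36 (SD, n = 3) for the pulldown, a difference of -1.03 percentage points that was smaller than the spread between libraries. Since the members were chosen for their totals, the levels themselves are a description and carry no test. Of all reads, those assigned to no gene included, the 8 took 16.8% ± 3.41 in input and 17.8% ± 5.27 in the pulldown. Of the counts of Snord symbols alone, the 8 took 83.5% ± 1.08 in input and 84.1% ± 1.30 in the pulldown. The difference of the combined share turned to 0.944 points when Gas5, the gene with the most counts, was left out of the total, and it was 1.48 points without pulldown 1 and 0.996 without input 3. In such bulk libraries fewer cells and less RNA per cell cannot be told apart, and a share rises when other RNAs fall.

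The choice of members ended at Snord110, with 519988 counts over the 6 libraries (2.52% of the total). The genes next below by total were the ribosomal precursor Rn45s with 389171, Snord47 with 375028 (1.82%), Snord4a with 266425, Snord49b with 216462 and Snord96a with 207404. Only Gas5, with 3402097, lay above all 8.

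The 4 RNAs at the top were Snord12, Snord55, Snord43 and Snord49a. Snord12 took 15.2%, 9.89% and 17.5% of gene counts across inputs 1 to 3 against 13.7%, 10.7% and 17.9% across pulldowns 1 to 3. Its lowest library in each group was replicate 2, and the groups overlapped (means 14.2% ± 3.91 and 14.1% ± 3.60, SD, n = 3 each). Snord55 took 16.5%, 14.6% and 13.5% in input against 14.0%, 12.8% and 13.1% in the pulldown. It was among the steadiest, with 1.29-fold between its highest and lowest library, and was lower in the pulldown in 3 of 3 same-numbered pairs with overlapping groups. Snord43 took 11.6%, 11.0% and 7.43% in input against 6.62%, 19.6% and 12.2% in the pulldown. Its share in pulldown 2 was the highest of any of the 8 in any library, and its share in pulldown 1 the lowest of its own. Snord49a took 4.47%, 9.46% and 15.6% in input against 12.3%, 8.35% and 9.91% in the pulldown. It had the widest range of the 8, 3.49-fold, both ends of which were input libraries.

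The other 4 were less abundant. Snord83b took 5.94%, 5.67% and 5.93% in input against 5.03%, 5.26% and 5.27% in the pulldown. Every pulldown library lay below every input library, but by little, at 5.85% ± 0.154 against 5.18% ± 0.138 (SD, n = 3 each). The difference of -0.661 points gave an exact two-sided permutation p = 0.1, the smallest that 3 against 3 allows, and adjusted over all 1852 tested genes it was 1. For the other 7 the exact p was 0.2 to 1, also 1 after adjustment. Snord83b was the one member of 8 whose shares did not overlap between groups, against 2.65% of all tested genes, and after scaling by the trimmed mean of M-values (TMM) its values overlapped (0 of 8 members against 10.4% of tested genes without overlap). Snord2 took 5.20%, 4.42% and 4.98% in input against 2.35%, 4.75% and 3.38% in the pulldown, with pulldowns 1 and 3 below all inputs and pulldown 2 among them. Snord99 took 3.63%, 2.35% and 2.46% in input against 3.27%, 2.30% and 1.79% in the pulldown, and Snord110 took 3.50%, 2.17% and 1.49% in input against 1.52%, 2.80% and 2.46% in the pulldown. Both overlapped between groups, and Snord99, like Snord55, was lower in the pulldown in 3 of 3 same-numbered pairs. Equal numbers are not said to mark one experiment, and the share of all tested genes with such agreement was not computed. Exact Clopper-Pearson 95% intervals of single shares were at most 0.0775 points to either side. This was below the spread between libraries, though for Snord83b it was 0.0489 points against SDs of 0.154 and 0.138. The intervals take reads as independent, which PCR copies are not, so they can understate the counting error.

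**Figure D1:**
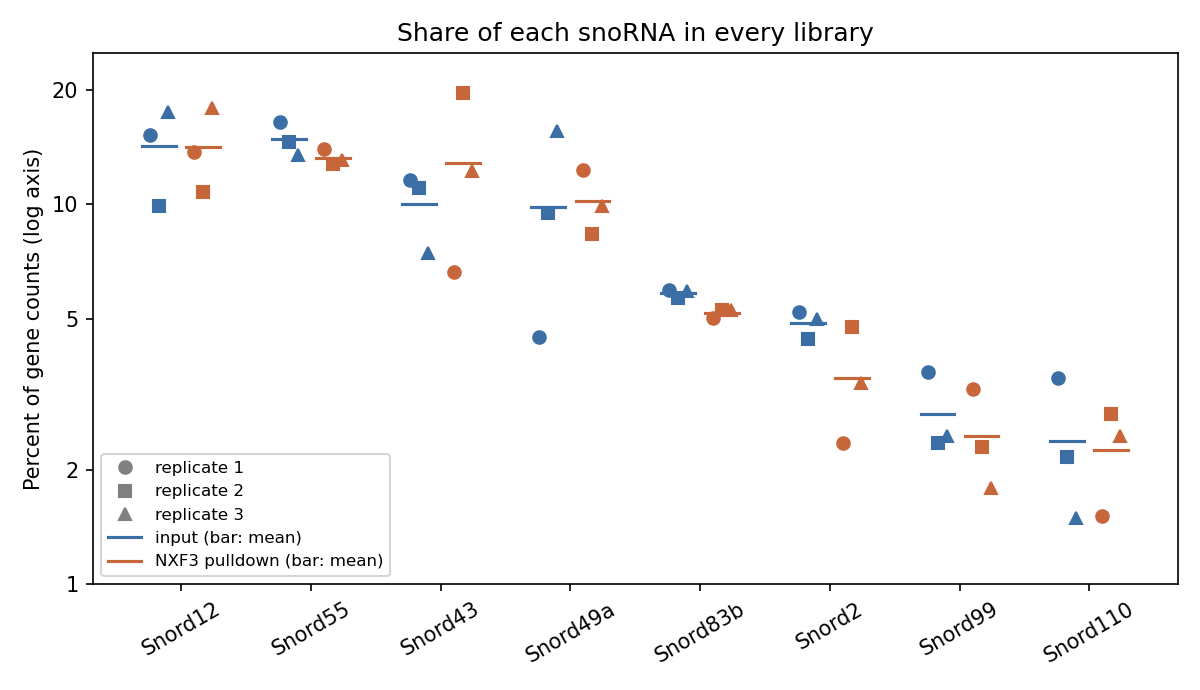
Percent of gene counts (log axis) of the 8 snoRNAs in each of 3 input (blue) and 3 NXF3 pulldown (orange) libraries, with symbols for the replicate number and bars for group means. Snord83b stays between 5.03% and 5.94%, whereas Snord43 reaches 19.6% in pulldown 2 and Snord49a runs from 4.47% to 15.6% among the inputs.

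Counts divided by the length of the GENCODE model and by the total of gene counts (RPKM) gave a different order at the top. Over the 6 libraries Snord55 had a mean of 1779666 ± 170536 RPKM, Snord12 1573479 ± 373364, Snord49a 1391167 ± 520867 and Snord43 1056952 ± 428012 (SD, n = 6). Neighbours among these 4 differed by less than the larger SD of the couple, while Snord55 and Snord43 differed by more than either SD. Snord2 (606063 ± 159333) and Snord83b (586731 ± 40962) formed a second level, and Snord99 (355980 ± 92285) and Snord110 (341296 ± 113651) a lower one, with differences within each couple again below the spread. When the span from box C to box D replaced the model length, Snord43 moved from rank 4 to rank 2, because its model is the longest and its span the shortest. The order of the lower 4 kept Snord2 before Snord83b, Snord99 and Snord110 on both lengths.

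The spread among libraries differed widely among the 8. The coefficient of variation of the share over the 6 libraries was 6.98% for Snord83b and 9.58% for Snord55, which ranked 1 and 2 of 62 tested Snord symbols. Snord83b had the lowest value of all 1852 tested genes. At the other end stood Snord43 with 40.5% (rank 44) and Snord49a with 37.4% (rank 40), and Snord110 had 33.3% (rank 34). The median was 26.1% for the 8 and 33.1% for the 54 other tested Snord symbols. Genes with few counts also carry counting error, and shares of abundant RNAs add up to most of a library, so these values describe the libraries and were not tested.

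No member was called different between pulldown and input. In the edgeR quasi-likelihood test over all genes, 0 of 8 were higher and 0 lower at an adjusted p under 0.05, where 0% of the 1852 tested genes were called higher and 0.054% lower. At an unadjusted p under 0.05 the count was 0 of 8, against 5.62% of all tested genes, and DESeq2 and limma-voom also called 0 of 8 (0.108% and 0.054% of all genes). The log2 folds were negative for 5 and positive for 3, with a median of -0.07 against -0.00 over all tested genes. The largest was that of Snord43, at 0.60 (SE 0.82, 95% interval -1.17 to 2.37, adjusted p = 0.968, edgeR). It rested on pulldown 2, without which the log2 fold was -0.39. Snord99 had -0.31 (SE 0.66, interval -1.73 to 1.10) and Snord2 -0.28 (SE 0.74, interval -1.87 to 1.30), both at adjusted p = 0.993 by edgeR. The remaining log2 folds were -0.16 for Snord55, -0.12 for Snord83b, -0.02 for Snord12, 0.11 for Snord49a and 0.01 for Snord110. Every 95% interval included 0 and was wide, as for Snord43, so the data did not tell apart the changes inside it, 0 among them.

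The TMM-scaled levels moved most in the same few libraries. Snord43 had 153399, 103936 and 65124 TMM-scaled CPM across inputs 1 to 3 against 33949, 322234 and 132548 across pulldowns 1 to 3. Snord2 had 69027, 41628 and 43656 in input against 12067, 78041 and 36672 in the pulldown. Pulldown 1 was the lowest library for 7 of the 8, all but Snord49a, and the highest was input 1 or pulldown 2 for each of the 8. In the shares, which use no TMM factor, pulldown 1 was the lowest for 3 of the 8 and the highest was input 1 or pulldown 2 for 6. Those libraries also have the extreme TMM factors, 1.95 in pulldown 1, 0.754 in input 1 and 0.609 in pulldown 2. Without pulldown 2 all 8 log2 folds were negative with a median of -0.58, and without pulldown 1 or without input 1, 7 of 8 were positive with medians of 0.27 and 0.18. In no setting was a member called, and the lowest adjusted p among 104 recomputed values was 0.751, in edgeR without pulldown 1. Few genes of any kind were called in these settings, at most 7 higher and 9 lower (no filter, 12025 genes).

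**Figure D2:**
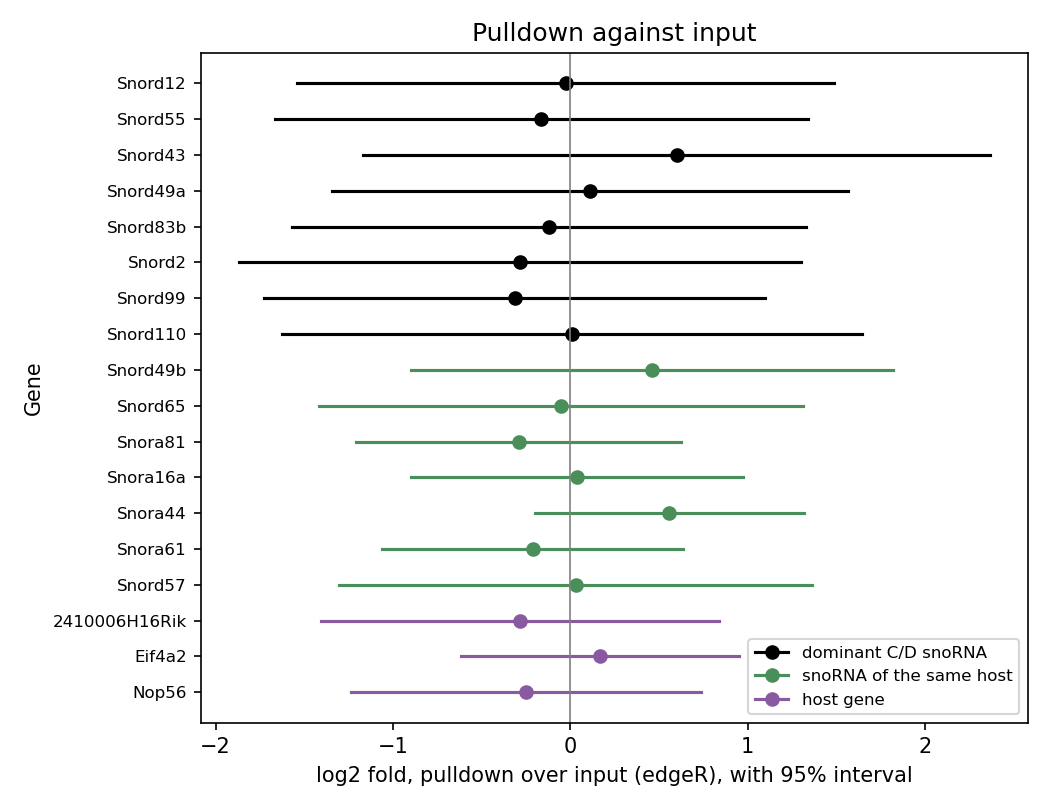
log2 fold of pulldown over input with its 95% interval (edgeR quasi-likelihood fit, 3 against 3 libraries) for the 8 snoRNAs (black), 7 other snoRNAs of their hosts (green) and the 3 tested host genes (purple). Every interval includes 0, and that of Snord43 is centred furthest to the right of the 8, at 0.60.

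The ratio of 2 snoRNAs within a library needs neither depth nor a scaling factor. Such ratios are of counts, not per length, and are compared only across libraries. The steadiest of the 28 was that of Snord55 to Snord83b, at 2.77, 2.58 and 2.27 across inputs 1 to 3 against 2.78, 2.43 and 2.48 across pulldowns 1 to 3. It moved by 1.22-fold over all 6 libraries, although total depth differed widely. The SD of its log2 value was 0.11, against a median of 0.58 over the 28 ratios and of 0.68 over the 1863 other ratios of tested Snord symbols. The lowest SD among those 1863 was also 0.11, so such steadiness was not particular to this pair.

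The pair that shares the host Rpl3 was far less steady. Snord43 to Snord83b stood at 1.95, 1.95 and 1.25 in input against 1.32, 3.73 and 2.32 in the pulldown, a 2.98-fold range with overlapping groups. Among the 61 other tested Snord symbols, Snord83b ranked 25th in steadiness of the ratio to Snord43. The least steady of the 28 was Snord49a to Snord110, at 1.28, 4.37 and 10.5 in input against 8.12, 2.98 and 4.04 in the pulldown, an 8.18-fold range. The 7 ratios with Snord49a had SDs of 0.65 to 1.08 on the log2 scale.

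**Figure D3:**
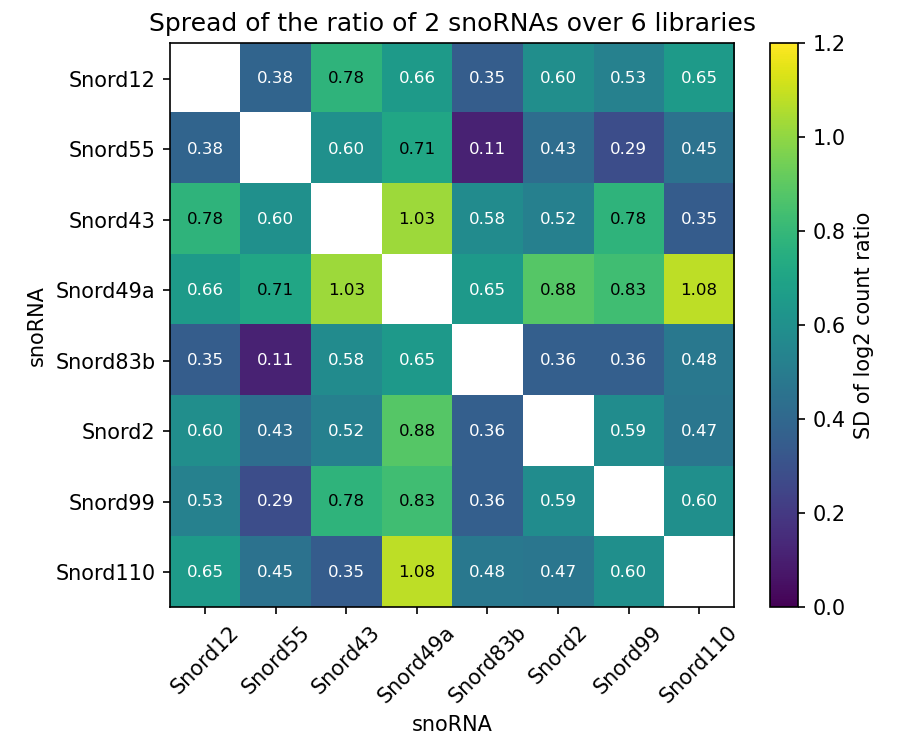
Standard deviation over 6 libraries of the log2 count ratio of each of the 28 couples of snoRNAs (colour scale and printed values, symmetric, empty diagonal). The darkest cell is Snord55 with Snord83b at 0.11, and the row of Snord49a runs from 0.65 with Snord83b to 1.08 with Snord110.

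One ratio did not overlap between the groups. Snord43 to Snord2 was 2.22, 2.50 and 1.49 across inputs 1 to 3 against 2.81, 4.13 and 3.61 across pulldowns 1 to 3, with means of 2.07 ± 0.519 and 3.52 ± 0.663 (SD, n = 3 each). On the log2 scale the difference was 0.78, and the ratio was higher in 3 of 3 same-numbered pairs, which follows from the lack of overlap. This is 1 of 28 ratios, and among all 1891 ratios of tested Snord symbols 13.2% did not overlap, so the share among the 8 was not above that background. The count was 5 without pulldown 1, 4 without pulldown 2 and 2 without input 1 or without input 3. With fewer libraries, groups separate more readily. The share over all ratios was not computed for these settings, so the 13.2% is no background for them.

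The other snoRNAs of these hosts that were counted were rarer on a per-length scale. Of 16 listed for the 6 hosts, 7 have a symbol in the tables, none of them in Rpl3 or Zfas1, and the other 9 were not analysed here. Snord49a had 9.07 times the reads per kilobase of Snord49b and 46.2 times those of Snord65, which share the host 2410006H16Rik, and Snord110 had 8.84 times those of Snord57 in Nop56. The box H/ACA snoRNAs, which guide pseudouridylation, lay lower still. Snord99 had 971 times the reads per kilobase of Snora16a, 1407 times those of Snora61 and 4476 times those of Snora44, all in Snhg12, and Snord2 had 9409 times those of Snora81 in Eif4a2. H/ACA models of 129 to 178 nt are longer than the C/D models, and how library preparation treated the lengths was not tested. The members were chosen as the Snord symbols with the highest totals. For the host mates with a Snord symbol the direction was therefore fixed by that choice, and the choice favoured every gap. The gaps are a description and carry no test.

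Among the C/D host mates counted, Snord49b moved most closely with its member. Snord49a to Snord49b was 10.5, 9.54 and 11.1 across inputs 1 to 3 against 9.08, 7.07 and 9.60 across pulldowns 1 to 3, a 1.57-fold range, while the share of Snord49a itself ranged 3.49-fold. Of 61 partners of Snord49a, Snord49b ranked second in steadiness after Snord15b, which is named after its value was seen. Snord65, of the same host, ranked 13th, with a ratio of 31.2, 46.9 and 53.9 in input against 96.9, 37.9 and 58.2 in the pulldown. Snord110 to Snord57 was 8.32, 6.40 and 8.56 in input against 2.46, 9.26 and 11.2 in the pulldown, so pulldown 1 stood apart from the other libraries. Of 7 host mates counted, none was called by edgeR, DESeq2 or limma-voom, which called 0.054%, 0.108% and 0.054% of all tested genes. None had an unadjusted p under 0.05, against 5.62% of all tested genes by edgeR, so these zeros are near the background. The log2 folds were positive for 4 and negative for 3, with a median of 0.03. Snora44 had the largest, 0.56 (SE 0.35, adjusted p = 0.917, edgeR), and Snord49b had 0.46 (SE 0.63, adjusted p = 0.968, edgeR).

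**Figure D4:**
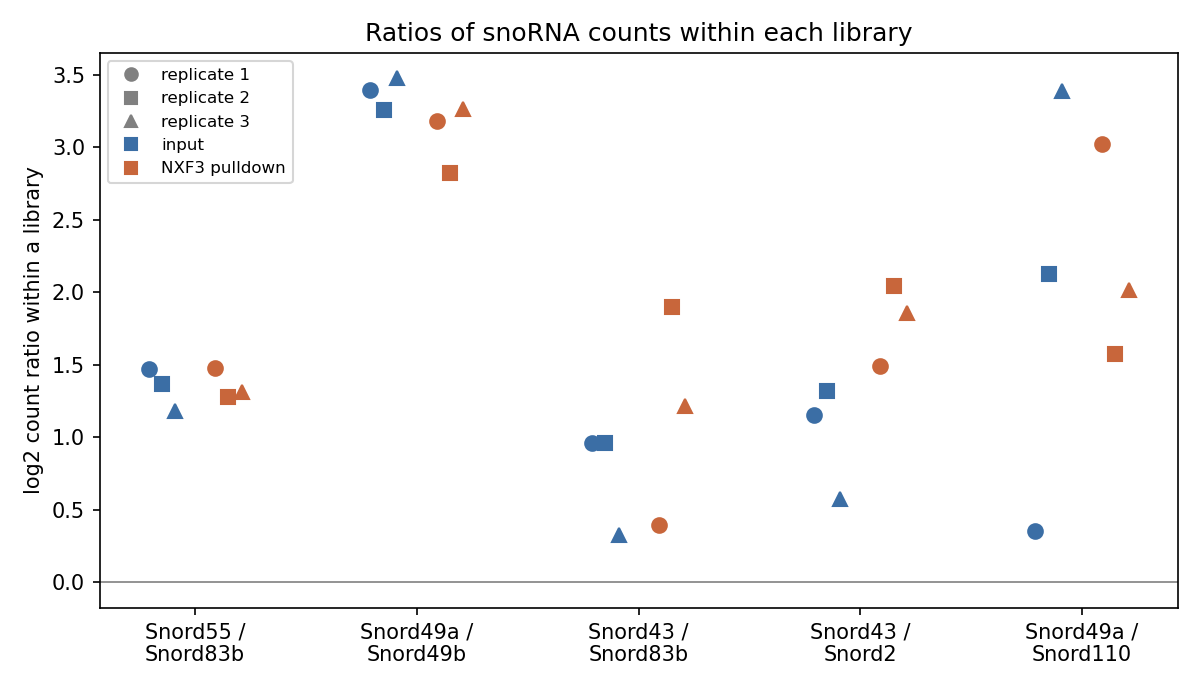
log2 count ratio within each input (blue) and NXF3 pulldown (orange) library for 5 couples of snoRNAs, with symbols for the replicate number. Snord55 to Snord83b and Snord49a to Snord49b stay close together, Snord43 to Snord2 is higher in every pulldown than in every input, and Snord49a to Snord110 spreads over an 8.18-fold range.

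Exons of the host genes were hardly seen in these small RNA libraries. The 6 hosts had 367 counts together over the 6 libraries, or 0.00178% of all gene counts. Snhg12 had 0, 2 and 1 counts across inputs 1 to 3 against 1, 1 and 1 across pulldowns 1 to 3, while Snord99 in its last intron had 523800 in all. Rpl3 had 4, 2 and 11 in input against 2, 10 and 3 in the pulldown. Zfas1, listed under its older symbol 1500012F01Rik, had 6, 5 and 6 in input against 1, 9 and 8 in the pulldown.

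The remaining 3 hosts passed the filter on low counts. 2410006H16Rik had 4, 6 and 14 counts in input against 5, 9 and 4 in the pulldown (edgeR gave -0.28 on the log2 scale, SE 0.52). Eif4a2 had 21, 14 and 24 in input against 11, 43 and 11 in the pulldown (edgeR gave 0.17 on the log2 scale, SE 0.36), and Nop56 had 21, 17 and 36 in input against 22, 25 and 7 in the pulldown (edgeR gave -0.25 on the log2 scale, SE 0.46). Of the 6 hosts, 3 were tested and 0 were called by edgeR, DESeq2 or limma-voom, with adjusted p from 0.988 to 0.993 in edgeR and 0 at an unadjusted p under 0.05. Over all tested genes the shares called were 0.054%, 0.108% and 0.054%, and 5.62% had an unadjusted p under 0.05 by edgeR. The zeros are near that background. Per kilobase, the snoRNAs had 112134 times (Snord110 over Nop56) to 1077717 times (Snord43 over Rpl3) the reads of their spliced hosts. Choosing the members for their high totals favoured such ratios, which are a description and carry no test. Products of 30 to 375 nt were taken from the gel, so spliced host RNAs can enter only as fragments and these ratios do not compare intact RNAs.

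**Figure D5:**
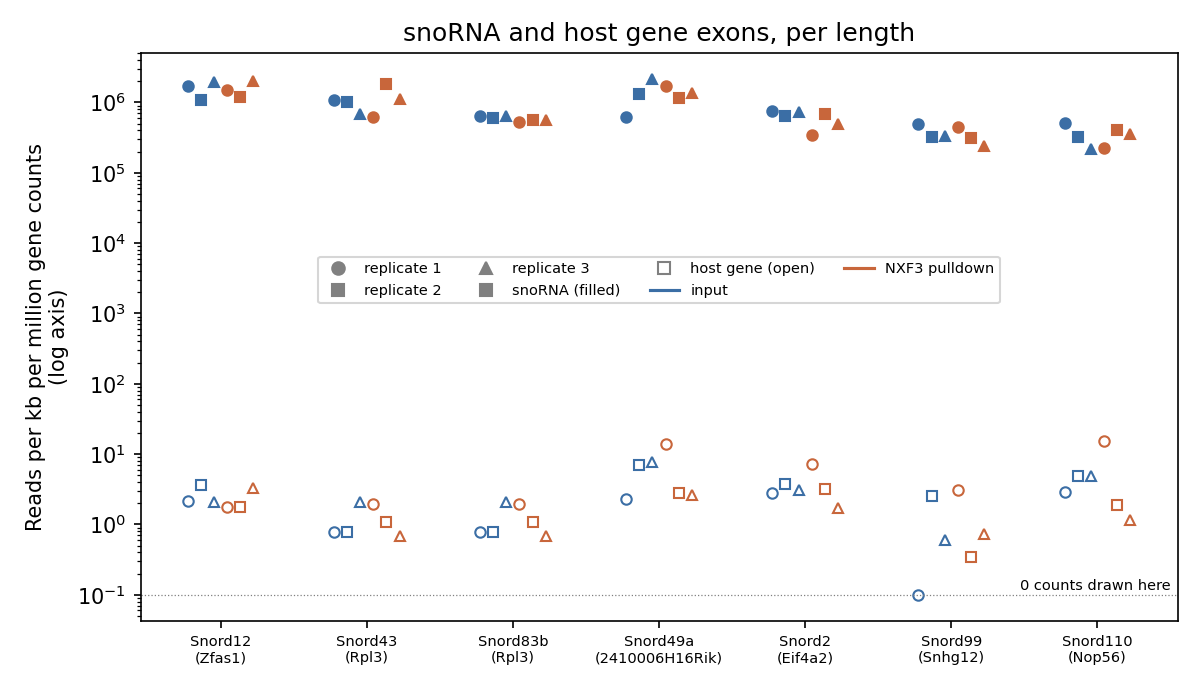
RPKM (log axis) of 7 of the snoRNAs (filled) and of the spliced transcript of the host gene, named in brackets (open), in 3 input (blue) and 3 pulldown (orange) libraries; a count of 0 is drawn on the dotted line. All snoRNA values lie above all host values, and over the summed libraries each snoRNA lies at least 112134-fold above its own host. The snoRNAs were chosen for their high totals, which favours this gap.

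Genes for the proteins of the C/D particle gave few reads too. Fbl, which codes for fibrillarin, was at 0 in every library, and Nhp2l1, which codes for Snu13, had 2 counts in all. Nop58 had 14, 14 and 21 counts in input against 10, 25 and 7 in the pulldown (edgeR gave -0.15 on the log2 scale, SE 0.38, adjusted p = 0.993). Of the 9 genes of the list, which also holds Nop56 and the assembly factors Nufip1, Ruvbl1, Ruvbl2, Znhit3 and Znhit6, 2 were tested and 0 were called, with 0 at an unadjusted p under 0.05 and 0 by DESeq2 or limma-voom. By edgeR, 0.054% of all tested genes were called and 5.62% had an unadjusted p under 0.05, so 0 of 2 is near the background.

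Among 204 other genes averaging 50 counts or more, the 3 whose log2 CPM over the 6 libraries was most like the mean of the 8 were all C/D snoRNAs. Of the 204, 52 have a Snord symbol. Snord98 had Pearson r = 0.995, Snord58b 0.985 and Snord73a 0.980. Each of the 8 set against the mean of the other 7 gave r = 0.994 for Snord83b, 0.976 for Snord55, 0.954 for Snord2, 0.939 for Snord110, 0.932 for Snord43, 0.809 for Snord12 and 0.783 for Snord99, and 0.287 for Snord49a. The 6 points share library depth and TMM factors, so these values describe the libraries only. Snord98 had 145, 52.5 and 40.3 TMM-scaled CPM across inputs 1 to 3 against 11.3, 183 and 62.8 across pulldowns 1 to 3, with its lowest value in pulldown 1 and its highest in pulldown 2. Its log2 fold of pulldown over input was 0.13 (adjusted p = 0.995, edgeR).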

How the data were processed

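Small RNA was sequenced from 3 input and 3 NXF3 pulldown libraries, made with 14 PCR cycles and cut at 30 to 375 nt, per the labels' protocols. The deposited files hold raw counts of reads for each gene symbol. The submitters' processing notes name Bowtie, Partek and mm9, and per the file names and summary lines the authors removed rRNA reads and counted with HTSeq-count, the version, counting mode, strand setting and annotation being not given in the sources used here. Summary lines, which name no gene, held 64.4% to 77.8% of reads and were left out; 0.197% to 0.427% of reads were ambiguous between genes. A count of 0 allows 3 counts, 4.32e-05% to 0.00039% of a library. Intervals and floors cover counting error only, since PCR reads without molecular identifiers are not independent.

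Groups were compared with edgeR 4.0.16 under R 4.3.3 (TMM scaling, filterByExpr with a minimum count of 10, quasi-likelihood F test over 6 libraries, Benjamini-Hochberg adjustment, threshold 0.05) on all 1852 genes that passed, checked on simulated counts. DESeq2 1.42.0 and limma 3.58.1 were alternatives. Standard errors were derived from the F statistic. No library pair held identical values. Equal replicate numbers are not said to mark one experiment, and correlations of same-numbered deviations were 0.03, 0.07 and 0.14, so no block was used. Host genes were taken from general knowledge, checked against GENCODE M21. The named genes were the members, their hosts and host mates, the neighbours by total count, particle proteins and the 3 most similar profiles. Members and lists were chosen with earlier results of these data known. The sequence, position and host of Snord55 are not reported here.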

Additional observations from a re-analysis of the deposited data

How the results depend on the processing

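Counts of members, host genes and host mates called were 0 under all 13 alternatives (DESeq2, total-count scaling, TMM outside Snord and Snora symbols, no filter, only genes averaging 50 counts or more, limma-voom, the replicate block and leaving out each library). Few genes of any kind were called. Of 12025 genes with no filter, 7 were higher and 9 lower. Of 2261 without pulldown 1, 6 were higher and 5 lower, and total-count scaling called 0 of 1852. The zeros are therefore no result particular to these lists. With the replicate block 1 gene was higher and 3 were lower, none of them a member, and every pulldown library correlated best with the input of its own number, a hint from the data only. The sign of a member's log2 fold was less firm: of 104 recomputed values, 85 kept it and 19 turned. Without input 1 they were 0.27 (Snord12), 0.17 (Snord55), -0.12 (Snord49a), 0.13 (Snord83b), 0.02 (Snord2) and 0.20 (Snord99). Without pulldown 1 they were 0.31 (Snord12), 0.16 (Snord55), 0.24 (Snord83b) and 0.17 (Snord2), and without pulldown 2 -0.39 (Snord43), -0.17 (Snord49a) and -0.65 (Snord110). Snord110 also had -0.13 without input 2, -0.32 without input 3, -0.079 with total-count scaling, -0.024 with genes averaging 50 counts or more and -0.21 with limma-voom, and Snord12 had 0.015 with the same filter. When single libraries were left out, the log2 folds ran from -0.27 to 0.31 for Snord12, -0.59 to 0.17 for Snord55, -0.39 to 1.09 for Snord43, -0.17 to 0.47 for Snord49a, -0.58 to 0.24 for Snord83b, -1.10 to 0.17 for Snord2, -0.78 to 0.20 for Snord99 and -0.65 to 0.71 for Snord110. The difference in the combined share was -3.64 to 1.48 points when single libraries were left out, 1.05 points of all reads in the tables and 0.575 points of Snord counts. The 1 ratio without overlap became 1 to 5 when single libraries were left out, where the share over all ratios was not computed. In all 3 same-numbered pairs (replicate block), 6 ratios had the same sign. This is 21.4% of the 28 against 26.2% of all 1891 ratios of tested Snord symbols. For each of these turns the cause was not tested beyond the library or setting named. Counting intervals of the 8 shares were at most 0.0775 points to either side, whereas hosts such as Snhg12, with 6 counts in all, were too shallow to test.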
